A study of Mus musculus with 160 samples.

Results

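The genes that mark arteries and veins were followed in single mouse cells on their way from endothelium to blood. The set held 9 genes of the 23420 rows of the expression table, chosen by name: 6 arterial genes (Efna1, Nrp1, Efnb2, Gja4, Unc5b and Gja5) and 3 venous genes (Ephb4, Nrp2 and Nr2f2). All 9 were in the table, and 5 of them (Efna1, Nrp1, Efnb2, Ephb4 and Nrp2) were above 1 TPM (a relative transcript level, corrected for transcript length and scaled to the total of the cell) in more than 30 of the 160 cells. The question was which identity, arterial or venous, single hematopoietic endothelial cells show at the RNA level, and what remains of it in their progeny.

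Every cell came from C57BL/6 pluripotent stem cells that carry Runx1 and Hoxa9 under a doxycycline-inducible promoter at the Rosa26 locus. The study's text gives embryonic stem cells (iR9-ESC) as the source of the sequenced cells, while the labels name embryonic and induced stem cells without assigning cells to either. Lines were grown from drug-selected clones. The 65 induced hematopoietic endothelial cells (iHECs) were sorted as CD31+ CD41low CD45- c-kit+ CD201high. Doxycycline had been added before this sort, so the iHECs had been exposed to it too. The induced hematopoietic progenitor cells (iHPCs) had matured with doxycycline on OP9-DL1, a mouse stromal line that displays a Notch ligand. They comprised 21 D14 and 18 D17 cells (days 14 and 17, or days 3 and 6 of maturation), sorted as CD45+ Lin-, and 56 D21 cells (day 21, day 10 of maturation), sorted as Ter119- CD45+ c-kit+ CD127+. The gate changed together with the day between iHEC and D14 and between D17 and D21, so that day and gate cannot be told apart there. Between iHEC and D14 the culture on OP9-DL1 and its medium also began, and these cannot be told apart from day and gate.

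Arteries and veins differ in their endothelial genes before and apart from blood flow. Vascular endothelial growth factor (VEGF) and Notch signals favor the arterial program, and the nuclear receptor encoded by Nr2f2 favors the venous one. Ephrin-B2 on arterial cells meets its receptor EphB4 on venous cells, which keeps the vessel types apart. In the embryo, blood stem cells emerge from hemogenic endothelium in arterial walls.

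The start regions of 4 members are shown because the later results turn on them: Efna1 had the highest level of the set, Ephb4 is the venous partner of Efnb2, and Gja4 and Nr2f2 were seldom found in the same cell. Each line gives 250 bases before and 50 bases after the start of the gene in RefSeq (GRCm38.p6), 5′ to 3′ on the strand of the gene. Capitals mark a match to 1 of 2 motifs of ETS factors, spelled out after the sequences, on either strand. Efna1 lies on the minus strand at chr3:89280902-89281201, Ephb4 on the plus strand at chr5:137349859-137350158, Gja4 on the minus strand at chr4:127313990-127314289 and Nr2f2 on the minus strand at chr7:70366697-70366996.
Efna1: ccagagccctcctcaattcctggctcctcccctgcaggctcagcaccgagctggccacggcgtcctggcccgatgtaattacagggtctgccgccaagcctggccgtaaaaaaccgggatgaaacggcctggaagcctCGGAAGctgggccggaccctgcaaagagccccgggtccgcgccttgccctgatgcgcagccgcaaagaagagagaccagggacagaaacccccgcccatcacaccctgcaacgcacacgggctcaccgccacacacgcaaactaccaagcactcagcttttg
Ephb4: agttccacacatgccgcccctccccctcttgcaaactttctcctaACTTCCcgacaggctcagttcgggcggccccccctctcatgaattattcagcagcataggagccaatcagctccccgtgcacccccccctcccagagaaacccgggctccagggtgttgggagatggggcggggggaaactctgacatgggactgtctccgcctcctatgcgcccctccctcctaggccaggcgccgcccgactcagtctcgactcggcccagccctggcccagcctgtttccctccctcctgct
Gja4: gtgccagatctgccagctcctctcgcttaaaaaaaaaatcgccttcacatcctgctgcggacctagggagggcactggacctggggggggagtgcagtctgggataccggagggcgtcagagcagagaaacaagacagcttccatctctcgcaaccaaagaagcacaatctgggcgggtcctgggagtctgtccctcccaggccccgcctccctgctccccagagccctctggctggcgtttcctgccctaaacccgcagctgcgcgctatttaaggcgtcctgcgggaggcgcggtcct
Nr2f2: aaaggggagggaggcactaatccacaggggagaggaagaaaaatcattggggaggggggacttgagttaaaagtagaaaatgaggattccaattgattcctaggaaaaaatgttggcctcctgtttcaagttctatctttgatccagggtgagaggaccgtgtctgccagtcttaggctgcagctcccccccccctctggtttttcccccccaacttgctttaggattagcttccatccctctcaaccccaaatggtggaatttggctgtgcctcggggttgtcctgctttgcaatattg
The letters CGGAAG stood 112 bases before the start of Efna1 shown above. They stood in 1 of the 10 promoters of the 9 genes and in 16.9% of 32851 RefSeq promoters of this length. The other ETS motif, GGAAGT, shares 5 letters with the first where they overlap. It stood 205 bases before the start of Ephb4 on the opposite strand, in 1 of the 10 promoters and in 23.8% of all promoters. Efna1 has another RefSeq promoter, at chr3:89279596-89279895, which held neither ETS motif. Other motifs were searched on both strands in the 10 promoters of the 9 genes. The RUNX motif TGTGGT, present in 16.8% of all promoters, matched in 0 of the 10. The letters TGGGAA of RBPJ, the DNA-binding factor of Notch, stood in 25.6% of all promoters and in 0 of the 10. The same count was found for the GATA motif AGATAA, with 11.2% of all promoters. The SOX motif AACAAT, with 10.7%, also matched in 0 of the 10. The share of G and C was 72.3% in the promoter of Efnb2 and 49.7% in that of Nr2f2, where the median promoter had 52.7%.

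The labels name no culture or animal, so each group counted as 1 sample. No test was run, and each SD given describes how far cells within a group varied. Detected means above 1 TPM in the cell in question. A median of 4926 genes was detected per iHEC, 8200 per D14, 8101 per D17 and 6695.5 per D21 cell. The depth of the libraries is unknown, and widely expressed genes were also listed at 0 (Tbp in 20 of 65 iHECs), so a value of 0 says only that a gene was listed at 0. The endothelial label of the iHECs was checked with 10 markers, of which every iHEC had 3 or more detected. That count did not set iHECs apart, as 15 of 21 D14 and 16 of 18 D17 cells had as many. The level did differ, with a median mean on the log2(TPM + 1) scale of 7.04 in iHECs, 1.62 in D14 and 1.94 in D17 cells. Of the 65 iHECs, 23 also had 3 or more of 8 blood markers detected. Stromal and mural markers were close to 0 in iHECs, with highest means of 0.49 and 0.89.

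Several libraries stood apart from their labels. D14 cells 4 and 17 and D17 cell 9, all from a CD45+ gate, had Ptprc (which encodes CD45) at 0, 0 and 0.275 TPM and means of 2.40, 1.72 and 1.503 over 8 blood markers, where the other D14 cells had 7.91 to 9.35 and, apart from D17 cell 15 (6.96), the other D17 cells 8.73 to 9.73. The D14 pair held Pou5f1, the pluripotency factor, at 972 and 698 TPM, against at most 4.58 TPM in the other D14 cells. D17 cells 9 and 15 held 3 and 4 of 8 stromal markers and Krt8, a keratin, at 2306 and 1447 TPM, against at most 226 TPM in the other D17 cells and 621 TPM in the D14 cells. D17 cell 15 held Ptprc at 50.6 TPM and was set apart by its stromal count. In both cells that count includes Pdgfrb, which was above 1 TPM in 16 of the 18 D17 cells. Pou5f1 and Krt8 were picked after their values had been seen. Among the iHECs, cells 2, 31 and 64 had blood marker means of 7.32, 6.48 and 7.50 and endothelial means of 3.56, 1.56 and 4.10. Results that rest on these libraries are given with and without them.

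The arterial members ranged from nearly universal to nearly absent in iHECs. Efna1, a membrane-anchored ephrin ligand (chr3:89271733-89281142), was detected in 64 of 65 iHECs (98.5%, exact 95% interval 91.7 to 99.96%). Its lowest, median and highest levels were 0.0599, 514 and 1973 TPM, and 58 cells were above 100 TPM. Efna1 was the highest of the 9 members in 57 of the 65 cells.

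Nrp1, which encodes a co-receptor of VEGF and class 3 semaphorins (chr8:128358604-128503363), was detected in 47 iHECs (72.3%, 59.8 to 82.7%) with a median of 39.1 TPM and a highest level of 200 TPM. Efnb2, which encodes ephrin-B2 (chr8:8617434-8661242), was detected in 38 (58.5%, 45.6 to 70.6%), with a median of 2.40 TPM and a highest level of 210 TPM. Nrp1 was listed at 0 in 5 iHECs, lay between 0 and 1 TPM in 13 and was above 10 TPM in 41. Efnb2 was listed at 0 in 18, lay between 0 and 1 TPM in 9 and was above 10 TPM in 30.

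The connexin and netrin receptor genes were found in few cells. Unc5b, which encodes a netrin receptor of arterial endothelium (chr10:60762593-60831581), was detected in 16 iHECs (24.6%, 14.8 to 36.9%), with a median of 0 and a highest level of 156 TPM. Gja4, which encodes connexin 37 (chr4:127311421-127314039), was detected in 14 (21.5%, 12.3 to 33.5%), but 11 of the 14 were above 10 TPM and 7 above 100 TPM, with a highest level of 619 TPM. Gja5, which encodes connexin 40 (chr3:96904693-97077416), was detected in 1 cell, at 68.9 TPM, and was listed at 0 in the other 64. Gja4 was thus mostly either abundant or not detected.

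The 3 venous members were each detected in about as many iHECs as Efnb2 or fewer. Ephb4, the receptor of ephrin-B2 (chr5:137350109-137378669), was detected in 35 (53.8%, 41.03 to 66.3%), with a median of 2.18 TPM and a highest level of 141 TPM. Nrp2, which encodes a co-receptor of VEGF-C and semaphorins (chr1:62703285-62818695), was detected in 33 (50.8%, 38.1 to 63.4%), with a median of 1.07 and a highest level of 103 TPM. Nr2f2, which encodes COUP-TFII (chr7:70351944-70366735), was detected in 27 (41.5%, 29.4 to 54.4%), with a median of 0.186 and a highest level of 145 TPM. The lowest level of each was 0.

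**Figure D1:**
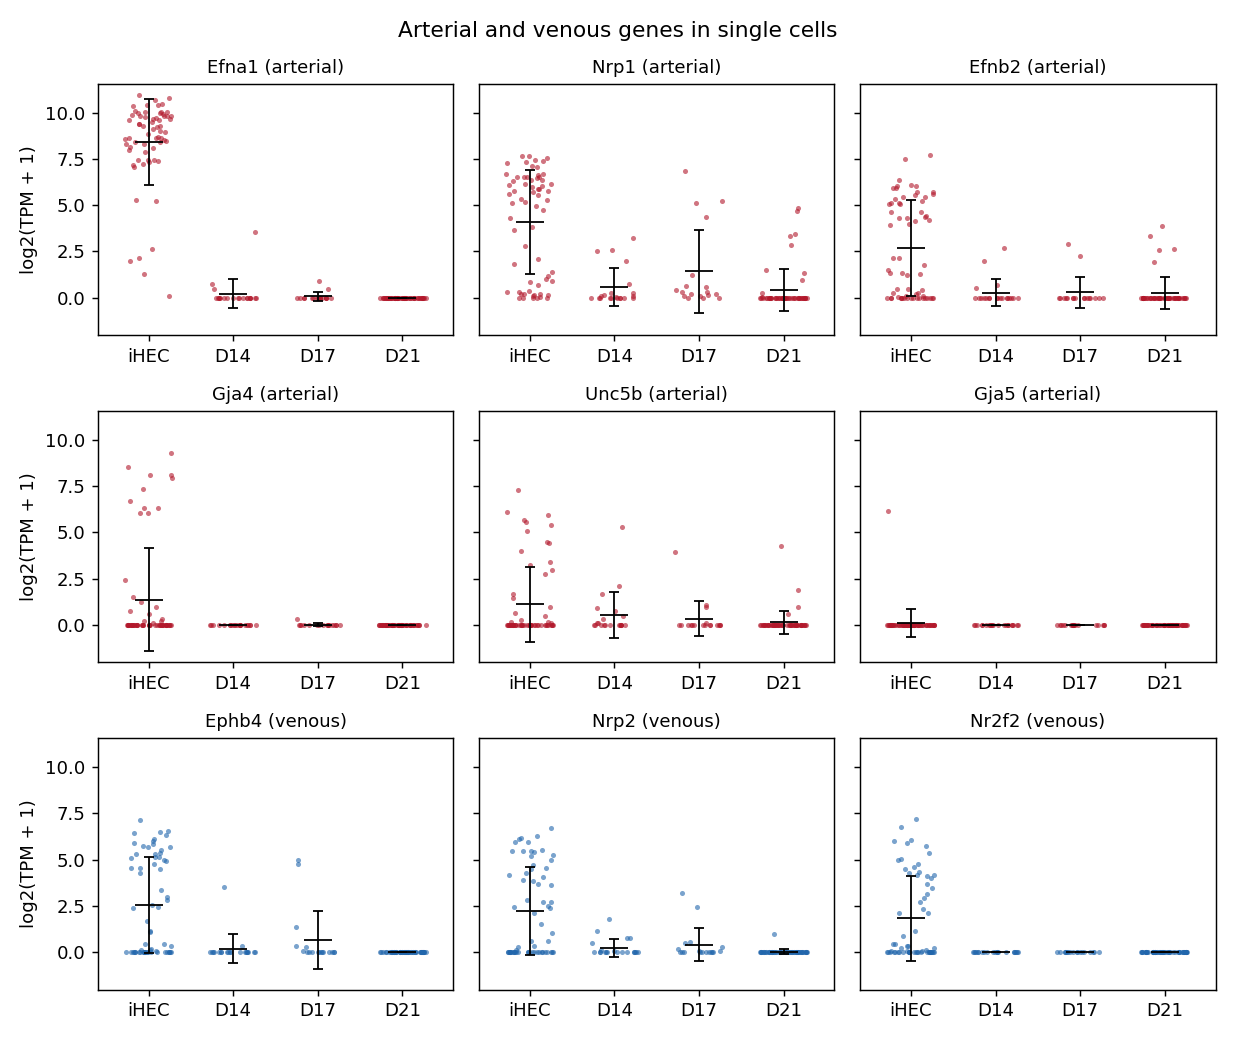
Level of each of the 9 genes, as log2(TPM + 1), in every cell of the 4 groups, with arterial genes in red and venous genes in blue. A point is a cell, the horizontal bar is the group mean and the whisker is 1 SD between cells. The mean of Efna1 lies above those of the other members in the iHECs, and Gja4, Gja5 and Nr2f2 are above 1 TPM in 0 iHPCs.

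On the log2(TPM + 1) scale the mean levels in iHECs followed the order Efna1 (8.40 ± 2.31, SD, 65 cells), Nrp1 (4.09 ± 2.83), Efnb2 (2.68 ± 2.58), Ephb4 (2.54 ± 2.60), Nrp2 (2.20 ± 2.38), Nr2f2 (1.83 ± 2.29), Gja4 (1.37 ± 2.78), Unc5b (1.11 ± 2.03) and Gja5 (0.09 ± 0.76). The gap of 4.31 between Efna1 and Nrp1 exceeded both SDs, and Efna1 was the higher of these in 63 of 65 cells. Every other gap between neighbors was smaller than both SDs except that of 1.02 between Unc5b and Gja5, which exceeded the SD of Gja5 but not that of Unc5b. Efnb2 was above Ephb4 in 29 cells and below it in 27.

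Most iHECs carried arterial and venous RNA together. At least 1 arterial and 1 venous member were detected in 51 of 65 cells (78.5%, 66.5 to 87.7%). Arterial members alone were detected in 14 cells and venous members alone in 0, which allows a share of up to 4.62%. Since Efna1 was in nearly every cell, the count was repeated without it, a choice made after seeing the data. Then 47 cells had both kinds, 12 had arterial members alone, 4 had venous members alone and 2 had none. Both counts set more arterial than venous genes against each other (6 against 3 with Efna1). Arterial members alone were thus easier to find than venous members alone.

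The number of members per cell varied. Among the 6 arterial genes, 7 cells had 1 detected, 16 had 2, 29 had 3, 11 had 4 and 2 had 5. Among the 3 venous genes, 14 cells had none, 20 had 1, 18 had 2 and 13 had all 3. Of the 13 cells with all 3 venous genes, 9 also had 3 arterial genes and 1 had 4.

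The mean over the arterial genes, called the arterial score, was 2.96 ± 1.08 (SD, 65 cells) and ranged from 0.73 to 5.88. The venous score was 2.19 ± 1.70, from 0 to 6.15. Their difference within a cell ran from -4.24 to 4.58, with a mean of 0.77 ± 1.89, and the arterial score was the higher in 42 of 65 cells (64.6%, 51.8 to 76.1%). Without Efna1 the mean difference was -0.32 ± 1.95 and 34 cells had the higher arterial score. Both means lie within the spread between cells, and the sign of the mean depends on Efna1.

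**Figure D2:**
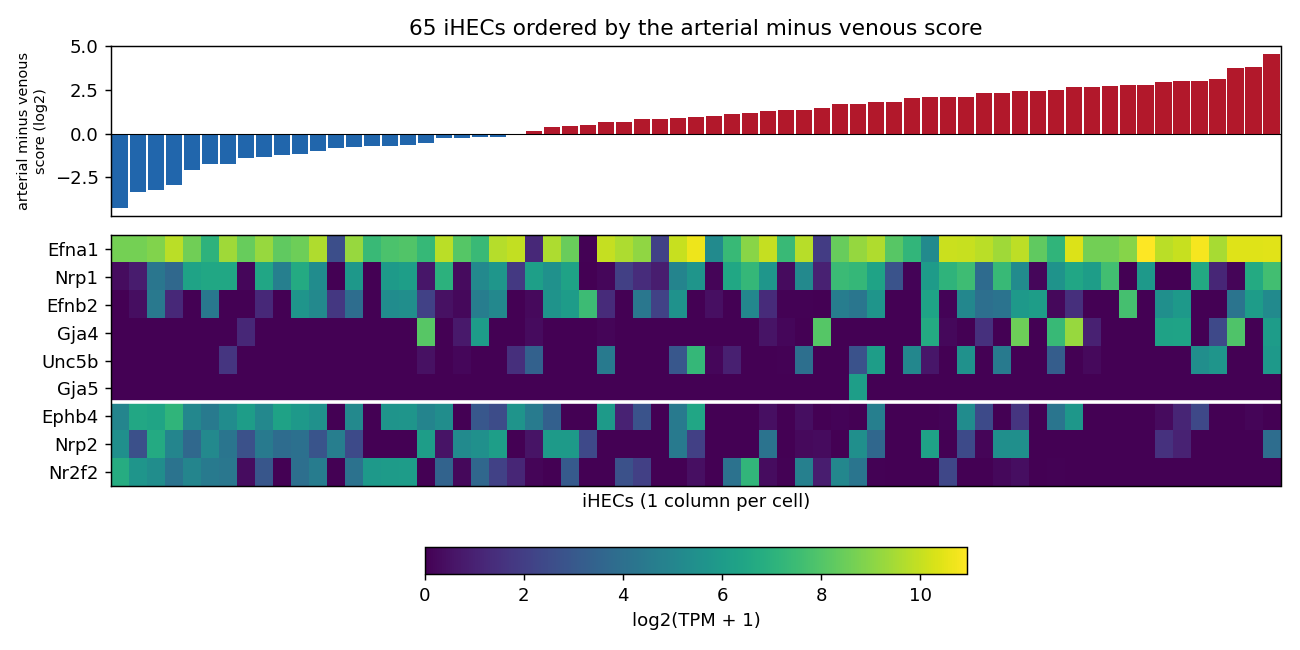
The 65 iHECs in order of their arterial minus venous score, plotted as bars above (log2 units, arterial higher in red, venous higher in blue) and with the level of each gene as color below, in log2(TPM + 1). The white line parts the 6 arterial rows from the 3 venous rows. The score ran from -4.24 to 4.58, and Efna1 was high at both ends of the order.

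Across the 65 iHECs the scores were nearly unrelated, with a Pearson r of 0.13 and a Spearman rho of 0.18, and r was 0.07 without iHEC cells 2, 31 and 64. This describes cells that share their sort and the scaling of TPM to a common total. The 36 pairs of members had r from -0.31 to 0.31, and 33 of them were below 0.3 in size. The highest values were those of Nrp1 with Efna1 (0.31), of Ephb4 with Nr2f2 (0.30) and of Efnb2 with Nrp2 (0.29). Ephb4 also followed the number of detected genes (r = 0.39), and with a linear trend over that number removed its r with Nr2f2 was 0.33.

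Efnb2 and Ephb4, the ligand and receptor that part arteries from veins, were not exclusive of each other in iHECs. Both were detected in 22 cells, Efnb2 alone in 16, Ephb4 alone in 13 and neither in 14. Ephb4 was thus detected in 57.9% (40.8 to 73.7%) of the cells with Efnb2 and in 48.1% (28.7 to 68.1%) of those without. Cells with both had a median of 5793.5 detected genes and cells with neither had 4566.5. Above 10 TPM, 15.4% of the iHECs held both.

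Nrp1 and Nrp2 likewise overlapped. Both were detected in 24 iHECs, Nrp1 alone in 23, Nrp2 alone in 9 and neither in 9. Nrp2 was in 51.1% (36.1 to 65.9%) of the cells with Nrp1 and in 50% (26.02 to 74.0%) of those without. The arterial ligand Efnb2 and Nrp2 shared 25 cells, and Nrp2 was in 65.8% (48.6 to 80.4%) of the cells with Efnb2 and in 29.6% (13.8 to 50.2%) of those without.

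Gja4 and Nr2f2 showed the opposite pattern. Of the 14 iHECs with Gja4, 1 had Nr2f2 above 1 TPM (7.14%, 0.181 to 33.9%), whereas 26 of the 51 cells without Gja4 did (50.98%, 36.6 to 65.2%). Of the 14 cells, 9 had Nr2f2 listed at 0 and 4 between 0 and 1 TPM. In the exception, iHEC cell 56, Gja4 was at 64.4 and Nr2f2 at 11.8 TPM. Their r was -0.31, and the counts rest on 14 cells, among them the much alike iHEC cells 24 and 25. These were not the only such pair. For example, iHEC cells 5 and 6 had Ephb4 at 51.7 and 49.9 and Nr2f2 at 64.7 and 62.7 TPM. All counts and intervals over iHECs take each of these as a separate cell. The number of detected genes was much alike, with medians of 4852 in cells with Gja4 and 4974 in cells without.

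The other arterial genes took different places beside Nr2f2, the venous regulator. Unc5b and Nr2f2 shared 4 cells, so that Nr2f2 was detected in 25% (7.27 to 52.4%) of the cells with Unc5b and in 46.9% (32.5 to 61.7%) of those without. Nrp1 and Nr2f2 shared 24 cells, and 3 cells had Nr2f2 without Nrp1. Nr2f2 was detected in 51.1% (36.1 to 65.9%) of the cells with Nrp1 and 16.7% (3.58 to 41.4%) of those without. Among the venous genes, Nr2f2 and Ephb4 shared 19 cells. The single cell with Gja5 also had Nr2f2, Nrp2, Nrp1, Unc5b and Efnb2.

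**Figure D3:**
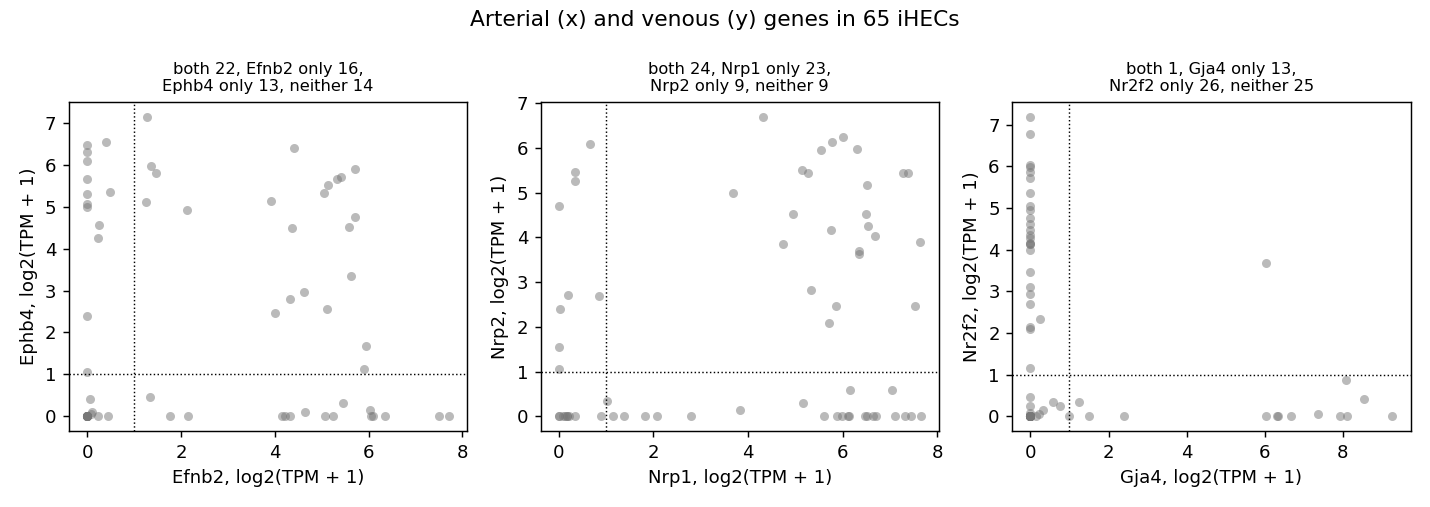
Levels of Efnb2 and Ephb4, Nrp1 and Nrp2, and Gja4 and Nr2f2 in the 65 iHECs, in log2(TPM + 1), with the arterial gene on the x axis. A point is a cell, and dotted lines mark 1 TPM. The upper right field holds 22, 24 and 1 cells, respectively.

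Some members moved with the general endothelial level of a cell. Over the 65 iHECs the mean of the 10 endothelial markers had r of 0.46 with Efna1, 0.45 with Nrp1, 0.35 with Ephb4 and 0.32 with Nr2f2, but 0.16 with Efnb2 and -0.01 with Gja4. The mean of the 8 blood markers had r of -0.31 with Nrp1 and -0.39 with the arterial score. Without iHEC cells 2, 31 and 64, left out after their values had been seen, these became -0.14 and -0.21. In these 3 cells Nrp1 was at 0.125, 0.0644 and 0 TPM, Efna1 at 37.2, 147 and 5.19 TPM, and Ephb4, Gja4, Gja5 and Nr2f2 at 0. Without them Nrp1 had r of 0.35 and Efna1 of 0.40 with the endothelial mean.

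The genes with profiles most like each member were ranked by Pearson r over the 65 iHECs among 6445 genes detected in more than 20 iHECs. For Efna1 these were Gnai2 (0.58), Nudt9 (0.55) and Tmem88 (0.54). For Nrp1 they were Myo10 (0.52), 4930502E18Rik (0.49) and Emcn (0.49), the last an endothelial sialomucin. For Efnb2 they were Son (0.46), Zfp691 (0.44) and Abhd5 (0.42). For Ephb4 they were Pxn (0.50), Mms19 (0.49) and Gata2 (0.48), each of which also followed the number of detected genes (r of 0.44, 0.39 and 0.31).

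For Nrp2 the nearest were Vapb (0.55), Slc38a10 (0.52) and Rnf138 (0.51), and for Nr2f2 they were Mapre2 (0.46), Ubl4 (0.40) and Pibf1 (0.40). For Gja4 they were Mtss1l (0.43), Gm15772 (0.42) and Abhd6 (0.42), and for Unc5b D17Wsu92e (0.46), Smtn (0.44) and Rufy2 (0.40). The nearest to Gja5, Acsf2 (0.34), Scaf8 (0.31) and Entpd7 (0.31), rest on a single cell. The genes near the arterial score included Sparc (0.51) and Vim (0.51), and the venous score was nearest to Peg13 (0.53), Vapb (0.51) and Rnf138 (0.49). Over all 160 cells the mean of the 9 members was nearest to Igf2 (0.91), Cdh5 (0.90), which encodes VE-cadherin, and Sparc (0.89), over groups of cells that differ widely in all of these genes.

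From iHECs to D14 iHPCs, 4 of the 9 members fell by at least 2 on the log2(TPM + 1) scale and 0 rose, where 5.63% of 9674 genes fell and 25.7% rose by that much. Efna1 fell by 8.17, Nrp1 fell by 3.52, Efnb2 fell by 2.40 and Ephb4 fell by 2.36. The differences of the others, D14 minus iHEC, were -1.96 for Nrp2, -1.83 for Nr2f2, -1.37 for Gja4, -0.56 for Unc5b and -0.09 for Gja5. The median difference was -1.96 over the 9 members and 0.93 over the 9674 genes, which include 5 members, or 0 over all 23420 genes without the filter. The 4 other members did not pass that filter, and Efna1, Ephb4 and Nrp2 passed it almost entirely through iHECs, with 1, 4 and 4 iHPCs above 1 TPM. Nr2f2, Gja4, Unc5b and Gja5 had mean levels under 2 in iHECs and therefore could not fall by 2 on this scale, so that the 4 falls are out of 5 members that could. The 5.63% was not limited in this way and includes genes too low in iHECs to fall by 2. It is therefore not a like share for the 4 of 5. Blood markers rose in the same comparison (8 of 8) and endothelial markers fell (10 of 10).

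**Figure D4:**
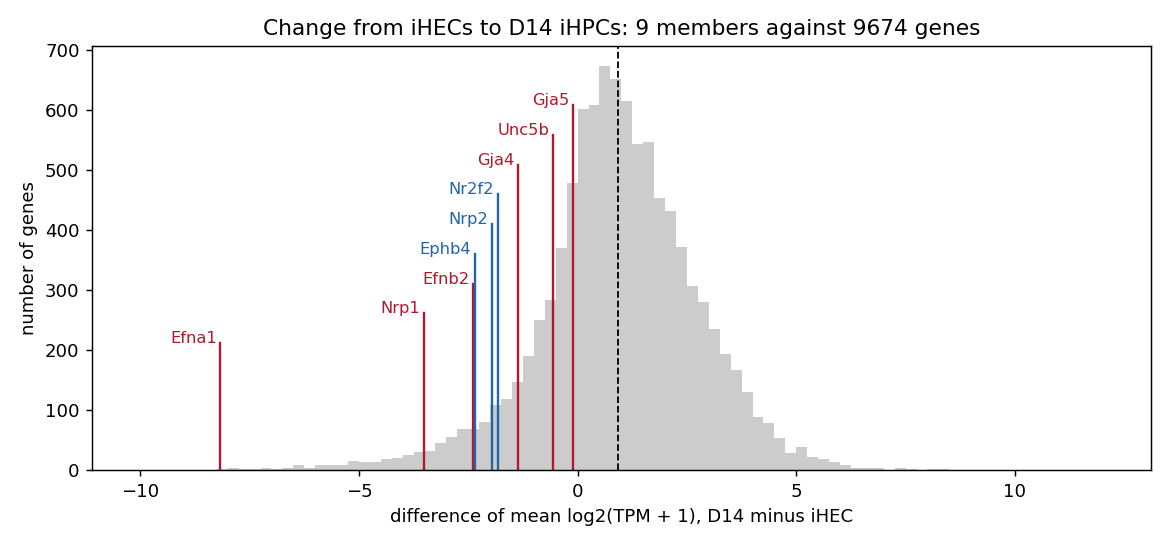
Number of genes (y axis, 9674 genes, gray) by their difference of mean log2(TPM + 1), D14 minus iHEC (x axis), with the arterial members as red and the venous members as blue lines, whose heights carry no value. The dashed line is the median of all genes at 0.93, and the members run from -8.17 for Efna1 to -0.09 for Gja5.

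Members were detected in a minority of the iHPCs of each day. Gja4, Gja5 and Nr2f2 were above 1 TPM in 0 cells of D14, D17 and D21, which allows shares of up to 14.3%, 16.7% and 5.36% by counting error alone. Efna1 was above 1 TPM in D14 cell 4 alone, at 10.8 TPM, a library that stood apart. Any member was detected in 9 of 21 D14 cells (42.9%, 21.8 to 66.0%), 5 of 18 D17 cells (27.8%, 9.69 to 53.5%) and 12 of 56 D21 cells (21.4%, 11.6 to 34.4%). Without the 4 libraries that stood apart, a choice made after seeing the data, these were 7 of 19 D14 cells (36.8%) and 3 of 16 D17 cells (18.75%).

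In D14 cells, Efnb2 was detected in cells 4 and 17 alone, at 5.54 and 2.94 TPM, and Ephb4 in cell 17 alone, at 10.4 TPM. Without these libraries Efnb2, Ephb4 and Efna1 were above 1 TPM in 0 of 19 D14 cells. Nrp1 was detected in 4 D14 cells at 2.90 to 8.23 TPM, Unc5b in 3 at 2.15 to 38.4 TPM and Nrp2 in 2 at 1.24 and 2.45 TPM, none of them the libraries that stood apart. Without D14 cells 4 and 17, Efna1 fell by 8.33 from iHEC to D14, Nrp1 fell by 3.46, Efnb2 fell by 2.62 and Ephb4 fell by 2.52.

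In D17, cells 9 and 15 each held 5 members. Nrp1 was at 33.9 and 35.8 TPM in these cells, Ephb4 at 25.9 and 30.03, Nrp2 at 8.06 and 4.44, Unc5b at 14.4 and 1.07, and Efnb2 at 3.84 and 6.41 TPM. They were the D17 cells with Efnb2, Nrp2 or Unc5b above 1 TPM. Each had 4 of 6 mural markers, and the part of another cell type in these values was not tested. Among the other 16 D17 cells, Nrp1 was detected in 3 (115, 19.7 and 1.31 TPM) and Ephb4 in 1 (1.59 TPM).

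Between iHPC days 0 of 9 members rose by 2. The highest member mean was 0.57 in D14 and 1.43 in D17, both of Nrp1, so that no member could fall by 2 and the background share of falls has no counterpart among the members. From D14 to D17 0.62% of all genes fell and 2.76% rose by that much, and from D17 to D21 7.76% fell and 0.755% rose. The largest differences were those of Nrp1, 0.86 from D14 to D17 and -1.01 from D17 to D21. Without the 4 libraries that stood apart they were 0.33 and -0.54. The difference of Ephb4 from D14 to D17 went from 0.47 to 0.11 when these libraries were left out.

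In D21 cells, the members still detected were Nrp1 in 7 cells (1.56 to 28.3 TPM), Efnb2 in 5 (2.82 to 13.7 TPM) and Unc5b in 2 (2.70 and 17.98 TPM), whereas Ephb4, Efna1, Gja4, Gja5, Nrp2 and Nr2f2 were above 1 TPM in 0 of 56. Efnb2 and Nrp1 shared D21 cell 15, with Efnb2 at 5.32 and Nrp1 at 1.56 TPM. With 5 and 7 of 56 cells, so small an overlap does not show that the genes lie in separate cells. The mast cell genes beside each were then looked at. The mean over 6 mast cell markers ran from 1.82 to 10.3 over the D21 cells, with 19 cells above 8 and 2 between 5 and 8, a division set after seeing the values.

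All 5 cells with Efnb2 were among the 19 (26.3%, 9.15 to 51.2%), with mast marker means of 8.48 to 10.3. Of the other 37 cells, 0 had it (0 to 9.49%). The intervals for Efnb2 overlap narrowly, at a division that was set after seeing the values. Both cells with Unc5b were also among the 19. Of the 7 cells with Nrp1, 6 were among the 37 (16.2%, 6.19 to 32.01%) and 1 among the 19 (5.26%, 0.133 to 26.03%). The intervals for Nrp1 overlap widely, so its counts do not set the 19 and the 37 cells apart. The median number of detected genes was 7003 in the 19 cells and 6600 in the 37.

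**Figure D5:**
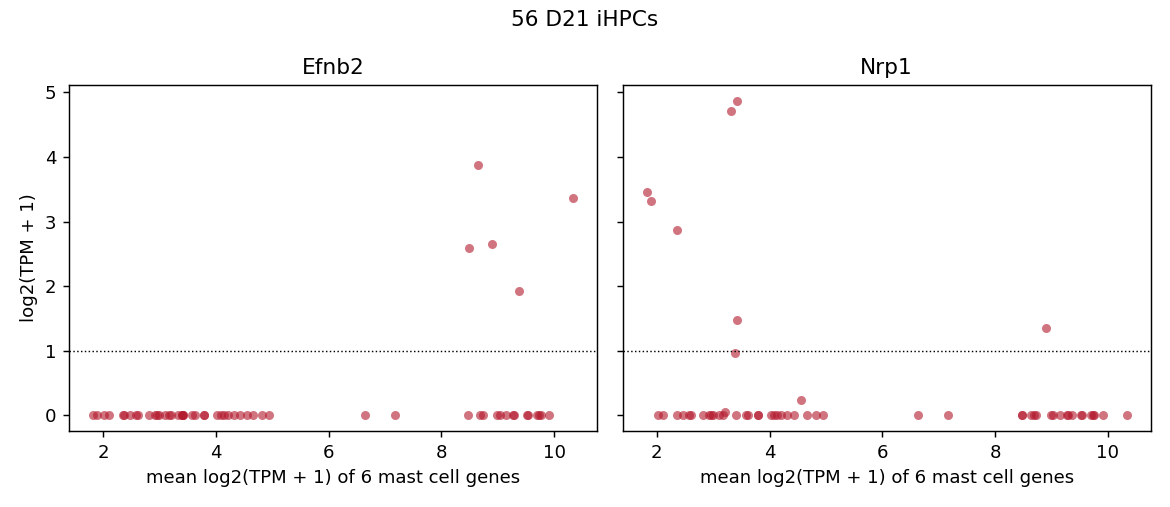
Level of Efnb2 (left) and Nrp1 (right), in log2(TPM + 1), against the mean log2(TPM + 1) of 6 mast cell markers in the 56 D21 iHPCs. A point is a cell and the dotted line marks 1 TPM. The 5 cells above the line for Efnb2 have mast marker means of 8.48 to 10.3, and 6 of the 7 for Nrp1 have means of 3.42 or less.

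Genes around the members were read from fixed lists. In every list, a gene with a mean level under 2 in iHECs could not fall by 2 to D14. Of the 8 ephrins, Efna1 and Efnb2 were the ones detected in 22 or more iHECs, and both fell by 2 from iHEC to D14. The others had mean levels of at most 0.69 in iHECs and could not fall by 2. Their next highest relative in iHECs was Efnb1, in 11 cells. Efna5, a further A-type ephrin, was detected in 2 of 65 iHECs and in 8 of 21 D14, 11 of 18 D17 and 15 of 56 D21 cells. Its differences of 0.96, 0.90 and -1.21 stayed under 2 in size. The median differences of the 9674 background genes were 0.93, 0.28 and -0.74, so the first was near that of a typical gene. Of the 14 Eph receptors Ephb4 alone was in 22 or more iHECs, and the others had means of at most 0.44 there, too low to fall by 2. Ephb2 was listed at 0 in iHECs and detected in 7 D14, 9 D17 and 13 D21 cells. Its difference from iHEC to D14 was 0.80, below the background median of 0.93. The main A-type receptors were sparse in iHECs, with Epha2 in 8 cells and Epha4 in 0, beside Efna1 in 64.

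Of 17 ligands and co-receptors of the neuropilins, 6 were in 22 or more iHECs and 5 fell by 2 to D14, where 5.63% of the 9674 background genes did. Kdr (VEGF receptor 2) was in 63 iHECs and fell by 5.83, Flt4 (VEGF receptor 3) was in 59 and fell by 4.84, Flt1 (VEGF receptor 1) was in 52 and fell by 4.22, Vegfa was in 54 and fell by 2.71, and the semaphorin receptor Plxnd1 was in 51 and fell by 2.44. Class 3 semaphorins were found in at most 11 iHECs (Sema3f).

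Of 11 genes of the netrin and Unc5 pathway, Flrt3, an adhesion protein that can bind Unc5 receptors, was in 64 iHECs with a median of 300.3 TPM and fell by 4.94, and Robo4, an endothelial guidance receptor, was in 28 and fell by 2.03, or fell by 1.91 and so by under 2 with median-of-ratios size factors. The netrin genes Ntn1 and Ntn4 were above 1 TPM in 0 iHECs and Unc5a, Unc5c and Unc5d in 0 of 160 cells. Of 16 other connexins, 11 were never above 1 TPM. Gja1 (connexin 43) was in 54 iHECs with a median of 73.4 TPM, against 14 for Gja4 and 1 for Gja5, and it fell by 2.27 to D14 and fell by 2.57 from D17 to D21. Of the 9674 background genes, 5.63% and 7.76% fell by at least 2 in these comparisons.

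Of 19 other genes tied to arteries, 10 were in 22 or more iHECs and 6 fell by 2 to D14, with a median difference of -1.33. Of the 9674 background genes 5.63% fell by that much, and their median difference was 0.93. The arterial genes of this list highest in iHECs were Igfbp3 (59 cells, fell by 6.45), Gja1, Sox17 (43 cells, fell by 4.38), a SoxF factor of arterial and hemogenic endothelium, Acvrl1 (47 cells, fell by 4.04) and Epas1 (44 cells, fell by 3.23). Cd44 went the other way, detected in 42 iHECs and in 19 of 21 D14 cells, with a difference of 1.33. From D14 to D17, 2 of the 19 rose by at least 2, where 2.76% of the 9674 background genes did. Notch1 rose by 2.42 and Cxcr4, a chemokine receptor also of blood cells, rose by 3.57. From D17 to D21, 3 of the 19 fell by at least 2, where 7.76% of the background genes did and their median difference was -0.74. Cxcr4 fell by 2.07, Cd44 fell by 2.51 and Gja1 fell by 2.57.

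Of 10 other genes tied to veins, 5 were in 22 or more iHECs and 3 fell by 2, with a median difference of -1.20. For the 9674 background genes the share was 5.63% and the median 0.93. The 3 venous genes that fell by 2 were Flt4, Emcn (46 cells, fell by 4.52) and Aplnr (43 cells, fell by 4.29). Dab2 was in 27 iHECs and Stab1 in 28, with differences of -1.18 and -1.76. Of 3 lymphatic genes, Lyve1, a hyaluronan receptor also of embryonic endothelium, was in 43 iHECs and fell by 4.25, Prox1, the lymphatic regulator, was in 5, and Pdpn was above 1 TPM in 0.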

How the data were processed

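Polyadenylated RNA of 160 single sorted cells was amplified (Discover-sc WTA Kit V2) and sequenced. The authors aligned reads to mm10 with HISAT2 (2.1.0 in the submitters' processing notes) and deposited TPM values from StringTie (1.3.4) in 1 table, of whose columns 0 were left unused. TPM is scaled within a cell (sums of 988686 to 999108 here), so a rise of some genes lowers others, and read counts are not kept. Levels were placed on a log2(TPM + 1) scale (pseudocount 1) in Python 3.11.15 with pandas 2.3.3 and scipy 1.17.1. The background held 9674 genes above 1 TPM in more than 30 cells, and differences of group means of at least 2 were counted. Shares carry exact Clopper-Pearson 95% intervals, and a count of 0 allows 3 cells in the group. These bounds reflect counting error alone and take cells as independent, although some iHECs were much alike in their member levels. No cell was left out and no doublet caller was run. Positions are from GENCODE (GRCm38, the assembly that mm10 names). The members and lists were chosen with earlier results of these data known. Named genes were the members, up to 5 of each list highest in iHECs, up to 3 past a difference of 2 between iHPC days, and the 3 genes nearest each member or score, of which 1 is not reported here. Epha2, Epha4, Ephb2, Efna5, Efnb1, Prox1, Pdpn, Sema3f, the netrins, the Unc5 genes, Tbp, Pou5f1 and Krt8 were named in part after their values had been seen. Alternatives covered thresholds, pseudocounts, size factors, filters and left-out cells. The ranking and the differences were tested on simulated data.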

Additional observations from a re-analysis of the deposited data

How the results depend on the processing

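Of 90 recomputed summary values, 75 stayed within the spread between cells, the exact interval or 1.5 times the count, and 15 moved. These bounds are wide, and a mean could change sign within them. The mean arterial minus venous score did so without Efna1, from 0.77 to -0.32. The 75 also include counts of 0 falls between iHPC days, where member levels were low from the start. The tally is therefore no measure of how firm the results are. The median difference of the members from iHEC to D14 was -3.36 with a pseudocount of 0.1 and -0.82 with one of 10, or -5.19 and -1.02 relative to all genes, and 7 and 1 members then fell by at least 2. From D17 to D21, 1 member did with a pseudocount of 0.1. Without a filter on low values the median relative to all genes from D17 to D21 was -0.078. With median-of-ratios size factors, 1 gene of the netrin and Unc5 pathway fell by 2 from iHEC to D14 and Robo4 fell by 1.91. Above 10 TPM any member was in 14.3% of D14 and 7.14% of D21 cells, and Efnb2 with Ephb4 in 15.4% of iHECs, or 20% above 5 TPM. The arterial score was the higher in 78.5% of iHECs with a pseudocount of 10 and in 44.6% when scored as the share of detected members. The cause of these shifts was not tested. Without cells under 4000 detected genes, 5 members fell from iHEC to D14 and the arterial score was the higher in 58.3% of iHECs. Of 288 values for single genes or pairs, 267 stayed within those bounds and 21 moved. No paired analysis was possible because the groups share cell numbers that name no culture and no test was run.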
